A study of Homo sapiens with 12 samples.

Results

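The surface and intracellular markers by which chronic lymphocytic leukemia (CLL) is recognised and graded were followed at the RNA level in 12 libraries of the human B-cell lines MEC1 and JVM2. The 10 genes were *CD38*, *ZAP70*, *CD5*, *LPL*, *TCL1A*, *ROR1*, *FCER2*, *ITGA4* (the gene of CD49d), *LEF1* and *CLLU1*, taken by symbol from 22441 genes listed for MEC1 and 17144 listed for JVM2. Of them, 8 had a row in the MEC1 table and 5 in the JVM2 table, and 4 (*CD38*, *FCER2*, *ITGA4* and *TCL1A*) had one in both. *CD5* had a row in neither table, *LPL* none for MEC1, and *ROR1*, *ZAP70*, *LEF1* and *CLLU1* none for JVM2, and these combinations were not analysed here. The lowest total of any listed gene was 10 counts over the 6 libraries of a line in each table.

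MEC1 derives from a CLL in prolymphocytoid transformation and JVM2 from a B-cell prolymphocytic leukemia. Each line was compared as stable transfected populations with higher (2B17) and lower (CTRL) levels of *UGT2B17*, a glucuronosyltransferase that inactivates steroids and other lipophilic molecules, with 3 replicates per population. MEC1-2B17 carried a pcDNA6 vector with the *UGT2B17* coding sequence under blasticidin, whereas MEC1-CTRL carried an shRNA against *UGT2B17* under puromycin, so that construct and antibiotic cannot be told apart from the *UGT2B17* level in this line. JVM2-2B17 carried the same overexpression vector and JVM2-CTRL the empty pcDNA6 vector, both under blasticidin. No untransfected cells were among the samples. In both lines, differences that arose between the populations during transfection and selection cannot be told apart from the *UGT2B17* level.

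In the clinic, CLL is told from other B-cell neoplasms by a panel of surface molecules in which *CD5*, CD23 (the product of *FCER2*) and *ROR1* are typically present. *CD38*, CD49d and ZAP-70 are read as signs of a more aggressive course, and the RNAs of *LPL*, *TCL1A* and *CLLU1* have been used in the same way. *LEF1*, a transcription factor of the Wnt pathway that normal mature B cells lack, serves as a marker of CLL in tissue sections.

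RNA of *UGT2B17* itself rose in MEC1 from a control level of 11.0 ± 0.691 CPM (counts scaled to the library total; mean ± SD, n = 3) to 21.1 ± 1.37 CPM, a log2 fold change (log2 FC) of 0.94 (SE 0.07, adjusted *P* = 2.0e-09, edgeR). In JVM2 the levels were 27.8 ± 1.83 and 38.7 ± 5.67 CPM, a log2 FC of 0.48 (SE 0.11, adjusted *P* = 0.0048, edgeR). Total counts ranged from 31762649 to 37744991 in MEC1 and from 8809179 to 11231330 in JVM2, so that low genes were measured more precisely in MEC1. Among the JVM2 libraries, JVM2-2B17 replicate 2 stood furthest from its own group. Its mean chi-square per gene was 8.35 and 8.58 against the other replicates, which differed from each other by 2.24. Among the MEC1 libraries it was MEC1-CTRL replicate 3, at 8.41 and 6.77 against 2.50 between the others. The chi-square grows with depth, so that its values cannot be compared between the lines. The 8 B-cell markers examined, among them *MS4A1* and *CD79A*, were all listed and summed to 2485 to 2712 CPM in the MEC1 libraries and 1492 to 1753 CPM in the JVM2 libraries. Monocyte markers summed to at most 1.70 CPM in any library.

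Of the 7 markers tested in MEC1, 5 passed an adjusted *P* of 0.05 in edgeR's quasi-likelihood test, 4 higher (*CD38*, *FCER2*, *LEF1*, *ZAP70*) and 1 lower (*TCL1A*) in MEC1-2B17. Over all 16581 genes tested in this line 41.7% were called, 20.0% higher and 21.6% lower. In JVM2, 3 of the 5 tested markers were called, *FCER2* higher and *CD38* and *ITGA4* lower, against 29.3% of 13021 genes (14.1% higher, 15.3% lower). The opposite direction of *CD38* in the lines was known when the genes were chosen. Without it the counts were 4 of 6 in MEC1 and 2 of 4 in JVM2. In MEC1, *TCL1A* and *CLLU1* passed the filter on low counts only through the group in which they were higher, so that the MEC1 counts are a description. The median log2 FC of the tested markers was 0.74 in MEC1 and −0.28 in JVM2 (0.51 and −0.021 without *CD38*), whereas that of all tested genes was 0.0026 and 0.00012.

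**Figure D1:**
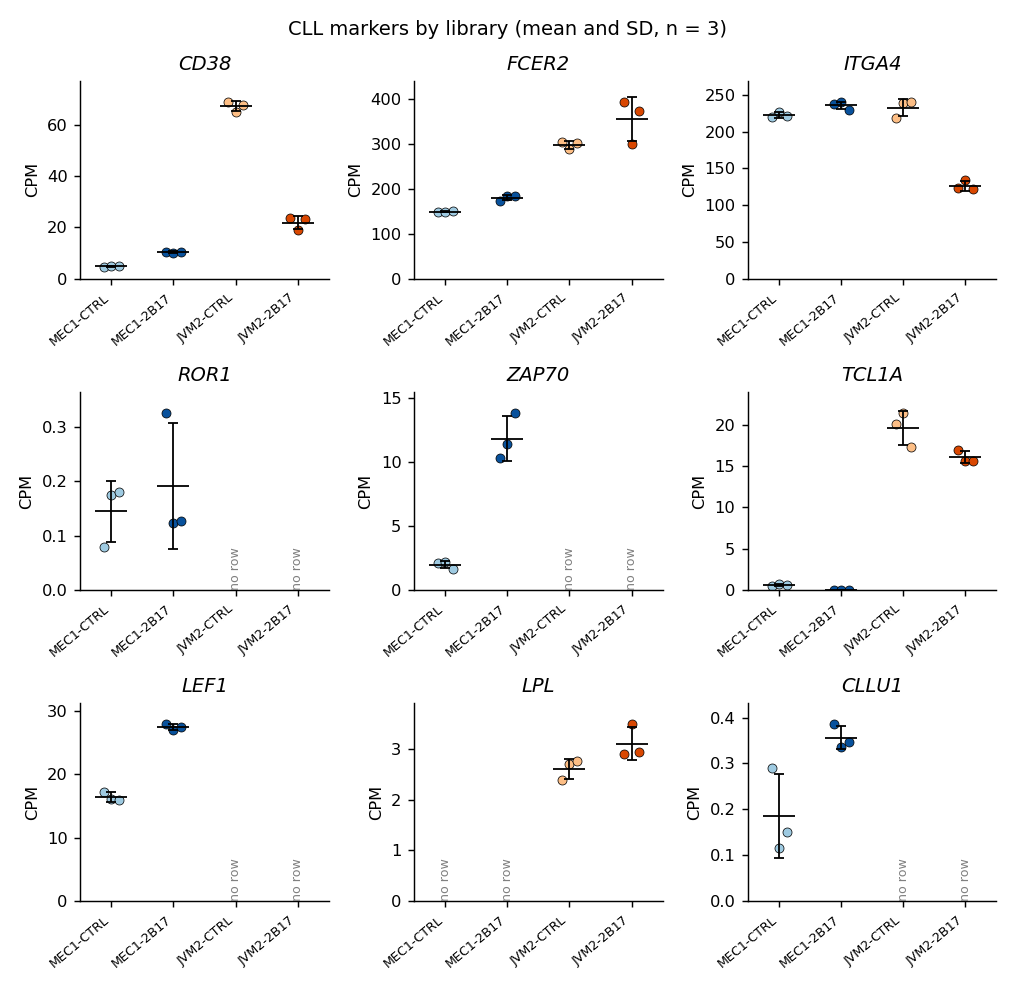
Level of each marker in CPM by library (points; vertical axes start at 0) in the 4 populations, with the mean and SD of 3 replicates. The arms overlapped for *ROR1* in MEC1 and for *FCER2* in JVM2, and for no other marker, and "no row" marks a gene not listed for that line.

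The 3 markers that changed more than 2-fold in a line were *CD38*, *ZAP70* and *TCL1A*, and their promoter windows are given to show the sequences in front of genes that moved in different directions. Each window runs from 250 bases before to 50 bases after a RefSeq transcript start on GRCh38.p14, 5′ to 3′ on the strand of the gene. The *CD38* window lies at chr4:15778078-15778377 on the plus strand, the first of 3 RefSeq windows of *ZAP70* at chr2:97713326-97713625 on the plus strand, and the *TCL1A* window at chr14:95714076-95714375 on the minus strand. Capitals mark matches to 5 searched motifs, read on both strands.
CD38: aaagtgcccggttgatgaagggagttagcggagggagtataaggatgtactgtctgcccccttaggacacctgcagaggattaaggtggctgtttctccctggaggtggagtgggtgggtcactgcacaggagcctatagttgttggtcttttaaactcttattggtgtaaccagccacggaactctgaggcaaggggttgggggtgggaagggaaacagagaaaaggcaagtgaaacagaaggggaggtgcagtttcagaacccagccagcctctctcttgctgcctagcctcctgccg
ZAP70: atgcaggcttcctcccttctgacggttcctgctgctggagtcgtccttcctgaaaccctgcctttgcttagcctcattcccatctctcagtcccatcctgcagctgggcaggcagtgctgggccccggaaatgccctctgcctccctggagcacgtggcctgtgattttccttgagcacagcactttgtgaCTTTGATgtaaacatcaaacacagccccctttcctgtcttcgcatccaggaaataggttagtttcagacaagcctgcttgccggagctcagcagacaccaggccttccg
TCL1A: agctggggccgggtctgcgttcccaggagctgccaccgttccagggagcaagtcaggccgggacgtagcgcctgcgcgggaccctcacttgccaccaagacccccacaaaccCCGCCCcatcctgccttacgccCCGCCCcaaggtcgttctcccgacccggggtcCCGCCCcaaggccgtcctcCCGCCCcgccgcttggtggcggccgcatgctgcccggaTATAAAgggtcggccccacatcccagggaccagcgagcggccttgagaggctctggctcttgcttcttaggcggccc

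The motifs were a TATA box (TATAAA), a GC box (GGGCGG), the octamer of B-cell promoters (ATGCAAAT), a core of *LEF1*/TCF sites (CTTTGAT) and an NF-kB site. Among 35116 human windows of the same 300 bases, 11.5%, 45.0%, 1.77%, 2.62% and 0.191% held them, in that order. *TCL1A* had a TATA box at base 224 of its window and 4 GC boxes on the reverse strand, with a GC content of 70.7%. The *ZAP70* window printed held 1 *LEF1*/TCF core at base 192 (GC content 56.0%), whereas the second of its windows held no match and the third, with 67.3% GC, held 4 GC boxes that partly overlap. The *CD38* window (54.0%) held none of these letters. A match of letters is a description of the sequence only.

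*CD38* is an ectoenzyme that consumes NAD and also acts as an adhesion receptor on B cells. Its gene lies at chr4:15778275-15853232 (GRCh38). The MEC1-CTRL libraries held 177, 176 and 162 counts and the MEC1-2B17 libraries 358, 321 and 329. In JVM2-CTRL there were 691, 697 and 639 counts, and in JVM2-2B17 260, 168 and 205. All libraries of the 2B17 arm were therefore above all controls in MEC1 and below all controls in JVM2 once scaled to depth. Mean levels were 4.88 ± 0.229 and 10.3 ± 0.396 CPM in MEC1 and 67.2 ± 1.98 and 21.9 ± 2.58 CPM in JVM2 (SD, n = 3). The log2 FC was 1.07 (SE 0.08) in MEC1 and −1.61 (SE 0.09) in JVM2, with a difference between the lines of 2.69 (SE 0.11), given without a test because this gene was chosen with its direction known. Between the controls, the log2 difference of *CD38* (MEC1 minus JVM2) was −3.95 (SE 0.08). After its rise in MEC1-2B17 its level was still below that of each JVM2-2B17 library. Of the other tested genes within 1 Mb of *CD38*, 0 rose and 3 fell of 10 in MEC1 (median log2 FC −0.14), and 1 rose and 1 fell of 5 in JVM2 (median −0.0040). The shares to set beside these and the later counts within 1 Mb are those over all genes tested. They were 20.0% higher and 21.6% lower in MEC1, and 14.1% and 15.3% in JVM2. *PECAM1*, the gene of CD31, a ligand of *CD38*, stood at log2 FC values of −0.05 (SE 0.16, adjusted *P* = 0.84, edgeR) in MEC1 and 0.07 (SE 0.18, adjusted *P* = 0.81, edgeR) in JVM2. *BST1*, a paralog with the same enzymatic activity, was listed for MEC1 alone, at 0.140 CPM in the controls and 0.0918 CPM in MEC1-2B17, and did not reach the count needed for a test.

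By likeness to *CD38* over the 12 libraries, measured as the root mean square difference between log2(CPM + 1) profiles centred on their own means, the closest of 12243 genes tested in both lines were *CARD16* (0.255), *LTBR* (0.330), *SBF2* (0.370), *DOK2* (0.416) and *LINC00665* (0.419). *CARD16*, a caspase-recruitment domain protein, averaged 0.597 and 0.976 CPM in MEC1-CTRL and MEC1-2B17 and 12.2 and 4.10 CPM in JVM2-CTRL and JVM2-2B17. *LTBR*, the lymphotoxin beta receptor, averaged 0.707, 0.909, 15.3 and 5.37 CPM in the same order. All 5 genes were lower in JVM2-2B17 than in JVM2-CTRL, by −0.76 (*DOK2*) to −1.57 (*CARD16*) on the log2 scale, but in MEC1 the log2 FCs ran from −0.26 for *LINC00665* to 1.77 for *DOK2*. In MEC1 *DOK2* was near the floor, at 0.295 CPM in MEC1-CTRL and 1.01 CPM in MEC1-2B17, and passed the filter on low counts only through MEC1-2B17. All 5 also had, as *CD38* did, a lower mean in both MEC1 populations than in either JVM2 population. This and the fall in JVM2 largely follow from picking the genes by their likeness to *CD38*.

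*FCER2* encodes CD23, the low-affinity IgE receptor of activated B cells, at chr19:7688758-7702146. Per exon length it had the highest level of the listed markers in every population. Counts were 5668, 5075 and 5007 in MEC1-CTRL and 5847, 5995 and 5812 in MEC1-2B17. Scaled to depth the arms did not overlap, with 149 ± 1.69 and 180 ± 5.95 CPM, a log2 FC of 0.27 (SE 0.04, adjusted *P* = 5.0e-06, edgeR). JVM2-CTRL held 3056, 3084 and 2836 counts and JVM2-2B17 4324, 2660 and 3295. Here the arms overlapped, since JVM2-2B17 replicate 2 (299 CPM) fell among the controls (288 to 304 CPM) whereas the other two replicates reached 392 and 373 CPM. The log2 FC of 0.25 (SE 0.08, adjusted *P* = 0.041, edgeR) lost its call when any 1 library other than JVM2-2B17 replicate 2 was left out (adjusted *P* 0.082 to 0.16). Between the lines the change of *FCER2* differed by 0.02 (SE 0.10, adjusted *P* = 0.88, edgeR). Of 42 other genes tested within 1 Mb in MEC1, 14 rose and 1 fell (median 0.14), and of 35 in JVM2 4 rose and 5 fell (median −0.0073). Over all genes tested 20.0% rose and 21.6% fell in MEC1, and 14.1% and 15.3% in JVM2.

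CD21, encoded by *CR2*, is a complement receptor that also binds CD23, and it was the partner with the widest gap between the lines. In MEC1 it rose from 494 ± 16.0 to 872 ± 37.2 CPM, a log2 FC of 0.82 (SE 0.04, adjusted *P* = 1.9e-12, edgeR). JVM2-CTRL held 161, 148 and 153 counts of *CR2* and JVM2-2B17 3, 4 and 2, with a log2 FC of −5.56 (SE 0.24, adjusted *P* = 5.5e-09, edgeR). *CR2* passed the filter on low counts in JVM2 only through JVM2-CTRL. The changes differed by 6.41 (SE 0.19, adjusted *P* = 1.6e-15, edgeR). *ADAM10*, the main sheddase of CD23, rose by a log2 FC of 0.09 in MEC1 (SE 0.03, adjusted *P* = 0.035, edgeR) and stood at −0.12 in JVM2 (SE 0.08, adjusted *P* = 0.28, edgeR).

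*ITGA4* encodes the alpha chain of the integrin VLA-4, which holds B cells to stromal and endothelial cells, at chr2:181457202-181538940. Counts were 8342, 7811 and 7319 in MEC1-CTRL and 8002, 7831 and 7290 in MEC1-2B17. The means of 222 ± 4.08 and 236 ± 5.11 CPM did not overlap by library, yet the log2 FC of 0.08 (SE 0.03) did not pass the test (adjusted *P* = 0.062, edgeR; 0.032 without MEC1-2B17 replicate 3). JVM2-CTRL held 2195, 2558 and 2259 counts and JVM2-2B17 1353, 1191 and 1077, so that every 2B17 library was below every control. The fall from 232 ± 11.8 to 126 ± 6.86 CPM gave a log2 FC of −0.88 (SE 0.06, adjusted *P* = 6.7e-07, edgeR). This change differed from that in MEC1 by 0.97 (SE 0.07, adjusted *P* = 2.9e-09, edgeR). *CERKL* overlaps *ITGA4* on the opposite strand, and since the strand setting of the counting is not given in the sources used here their reads may not be separated. *CERKL* held 27 to 38 counts in JVM2-CTRL and 15 to 23 in JVM2-2B17 (log2 FC −0.58, SE 0.27, adjusted *P* = 0.13, edgeR), and 29 to 46 in MEC1-CTRL and 9 to 14 in MEC1-2B17, far below the counts of *ITGA4*.

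*ITGB1*, whose product pairs with the *ITGA4* chain in VLA-4, fell slightly in both lines, by −0.21 (SE 0.05, adjusted *P* = 0.0020, edgeR) in MEC1 and −0.18 (SE 0.05, adjusted *P* = 0.026, edgeR) in JVM2 on the log2 scale. The JVM2 call for *ITGB1* was lost without JVM2-CTRL replicate 2 or 3 or JVM2-2B17 replicate 1 or 3 (adjusted *P* 0.053 to 0.12). *ITGB7*, the other beta chain, fell in MEC1 from 152 to 86.0 CPM (log2 FC −0.82, SE 0.04, adjusted *P* = 2.7e-12, edgeR) and stood at 0.06 in JVM2 (SE 0.05, adjusted *P* = 0.42, edgeR). Of the ligands, *VCAM1* fell in MEC1 from 9.31 ± 0.662 to 3.34 ± 0.153 CPM (log2 FC −1.48, SE 0.10, adjusted *P* = 4.6e-10, edgeR) and rose in JVM2 from 3.86 ± 1.04 to 9.84 ± 1.81 CPM (1.35, SE 0.21, adjusted *P* = 3.6e-04, edgeR). The changes of *VCAM1* differed by −2.83 (SE 0.22, adjusted *P* = 4.0e-09, edgeR), with the sign opposite to that of *ITGA4*. *FN1*, the gene of fibronectin, fell in MEC1 from 4.03 ± 0.0800 to 0.652 ± 0.184 CPM (log2 FC −2.62, SE 0.17, adjusted *P* = 4.9e-10, edgeR), the largest change of the wider lists in that line among genes averaging at least 1 CPM. In JVM2 it averaged 2.33 and 2.57 CPM (0.18, SE 0.27, adjusted *P* = 0.66, edgeR).

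**Figure D2:**
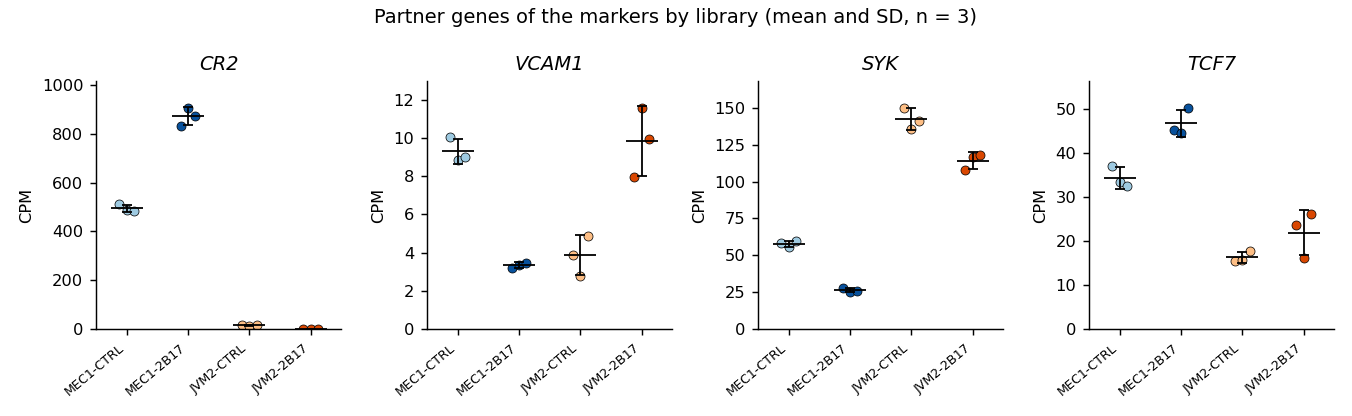
Level in CPM by library (points; axes start at 0) of *CR2*, *VCAM1*, *SYK* and *TCF7*, partners of *FCER2*, *ITGA4*, *ZAP70* and *LEF1*, with the mean and SD of 3 replicates. *CR2* and *VCAM1* moved in opposite directions in the lines, *SYK* was lower in each 2B17 arm, and *TCF7* was higher, with JVM2-2B17 replicate 2 (16.1 CPM) among the JVM2 controls.

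*ZAP70* encodes a tyrosine kinase of T-cell and natural killer cell receptor signaling that a subset of CLL cells also express. It lies at chr2:97713576-97739862 and was listed for MEC1 alone. The MEC1-CTRL libraries held 80, 74 and 54 counts and the MEC1-2B17 libraries 347, 372 and 437. The rise from 1.96 ± 0.290 to 11.8 ± 1.79 CPM was the largest among the markers, with a log2 FC of 2.58 (SE 0.13, adjusted *P* = 1.3e-11, edgeR), or 5.99-fold. Within 1 Mb, 2 of 21 other tested genes rose and 3 fell (median −0.0054). Of 8 T-cell markers, 6 were listed for MEC1 and summed to 1.26 to 1.66 CPM in MEC1-CTRL and 2.43 to 2.57 CPM in MEC1-2B17. *CD3D* and *CD4* had no row, and *CD3E* averaged 0.0197 CPM in MEC1-CTRL. Most of that sum was *CD247*, the zeta chain to which ZAP-70 binds, which rose from 0.868 to 2.02 CPM (log2 FC 1.22, SE 0.18, adjusted *P* = 2.3e-05, edgeR). The 5 listed of 6 natural killer cell markers summed to 25.0 to 27.2 CPM in MEC1-CTRL and 9.48 to 10.8 CPM in MEC1-2B17, a sum carried by *GNLY* at 19.6 and 4.94 CPM. Of these 5 genes 3 fell (*GNLY*, *KLRD1* and *KLRF1*, log2 FC −1.99, −0.83 and −0.87), *NCR1* rose (1.75, SE 0.31, adjusted *P* = 1.5e-04, edgeR) and *NKG7* stood at 0.44 (SE 0.25, adjusted *P* = 0.17, edgeR). *NCR1* averaged 0.239 CPM in MEC1-CTRL and passed the filter on low counts only through MEC1-2B17, so that its call adds little. The part of these T-cell and natural killer cell genes in the rise of *ZAP70* was not tested. The libraries are bulk RNA, in which fewer cells of a type and less RNA per cell cannot be told apart.

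*SYK*, the B-cell homolog of *ZAP70*, fell in MEC1 from 57.8 ± 2.00 to 26.4 ± 1.25 CPM (log2 FC −1.13, SE 0.05, adjusted *P* = 1.8e-12, edgeR). In JVM2 the fall was smaller, from 142 ± 7.49 to 114 ± 5.66 CPM (−0.32, SE 0.06, adjusted *P* = 0.0026, edgeR), and the changes differed by −0.81 (SE 0.08, adjusted *P* = 7.9e-08, edgeR). Per exon length *SYK* stood at 11.1 RPKM (CPM per kilobase of exon) in MEC1-CTRL and 5.06 in MEC1-2B17, 30.1 and 2.27 times the RPKM of *ZAP70*. *LCK*, the Src family kinase that activates ZAP-70 and phosphorylates *CD5*, fell by −0.16 in MEC1 (SE 0.04, adjusted *P* = 0.0073, edgeR) and by −1.15 in JVM2 (SE 0.10, adjusted *P* = 2.3e-06, edgeR) on the log2 scale. Without MEC1-2B17 replicate 2 the MEC1 value of *LCK* just missed the threshold (adjusted *P* = 0.051). *LAT*, the adaptor phosphorylated by ZAP-70, was too low to test in both lines, at 0.116 to 0.237 CPM.

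**Figure D3:**
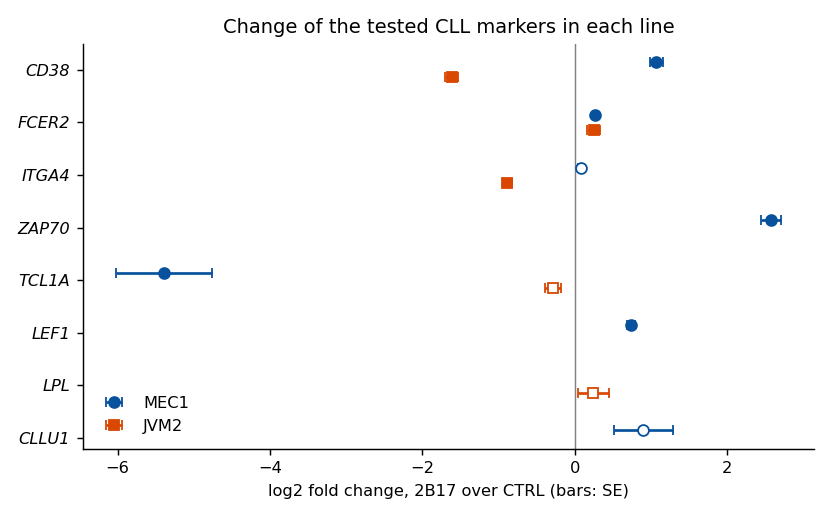
Log2 fold change of 2B17 over CTRL with its SE for the 8 markers tested in at least 1 line (circles, MEC1; squares, JVM2; filled where the adjusted *P* was below 0.05). *CD38* lies on opposite sides of 0 in the lines, *FCER2* on the same side, and *TCL1A* has the widest error in MEC1 because it rests on 1 count in MEC1-2B17.

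*TCL1A* encodes a co-activator of the AKT kinases that is normally made in early and naive B cells, at chr14:95709947-95714196. The MEC1-CTRL libraries held 19, 24 and 18 counts and the MEC1-2B17 libraries 0, 0 and 1. The pooled ratio of 61 counts to 1, scaled to depth, was 56.7 (exact 95% interval 9.79 to 2274, counting error only). The fitted log2 FC was −5.39 (SE 0.63, adjusted *P* = 1.2e-06, edgeR), and its size depends on the prior count. *TCL1A* passed the filter on low counts in MEC1 only through MEC1-CTRL, so that the call adds little to the counts themselves. JVM2 held far more, with 201, 229 and 163 counts in JVM2-CTRL and 187, 139 and 138 in JVM2-2B17. There the lowest control (17.3 CPM) and the highest 2B17 library (16.9 CPM) nearly met, and the log2 FC of −0.28 (SE 0.11) did not pass the test (adjusted *P* = 0.062, edgeR; 0.042 without JVM2-CTRL replicate 3). The changes differed between the lines by −4.90 (SE 0.63, adjusted *P* = 4.5e-06, edgeR). Between the controls the log2 difference of *TCL1A* (MEC1 minus JVM2) was −5.24 (SE 0.15, adjusted *P* = 9.2e-18, edgeR). Within 1 Mb, 2 of 16 other tested genes rose and 5 fell in MEC1 (median −0.069). A long noncoding RNA on the opposite strand of *TCL1A* (ENSG00000257275) held 4, 3 and 4 counts in MEC1-CTRL and 0, 1 and 0 in MEC1-2B17, and was too low for a test.

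The kinases that *TCL1A* binds changed little. *AKT1* fell by −0.21 (SE 0.04, adjusted *P* = 4.5e-04, edgeR) and *AKT2* by −0.13 (SE 0.03, adjusted *P* = 0.0030, edgeR) in MEC1 on the log2 scale. In JVM2 they stood at −0.13 (SE 0.07, adjusted *P* = 0.18, edgeR) and −0.06 (SE 0.07, adjusted *P* = 0.55, edgeR). *MTCP1*, a paralog of *TCL1A*, fell in MEC1 from 7.04 to 5.12 CPM (log2 FC −0.46, SE 0.11, adjusted *P* = 0.0020, edgeR) and was too low to test in JVM2. *TCL1B* had no row in either table.

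*LEF1*, at chr4:108047545-108168956, was listed for MEC1 alone. It held 656, 552 and 527 counts in MEC1-CTRL and 941, 879 and 869 in MEC1-2B17. The arms were well apart, at 16.4 ± 0.754 and 27.4 ± 0.473 CPM, with a log2 FC of 0.74 (SE 0.06, adjusted *P* = 2.7e-09, edgeR). Its antisense neighbour *LEF1-AS1* rose as well, from 10, 11 and 10 to 18, 19 and 19 counts (log2 FC 0.95, SE 0.29, adjusted *P* = 0.012, edgeR), and reads of the overlapping part may not be separated. *LEF1-AS1* passed the filter on low counts only through MEC1-2B17, so that its call adds little to the counts. Of 8 other tested genes within 1 Mb, 3 rose and 1 fell (median 0.29). *TCF7*, a factor of the same family, rose in MEC1 from 34.3 ± 2.47 to 46.7 ± 3.13 CPM (log2 FC 0.44, SE 0.06, adjusted *P* = 4.8e-06, edgeR). In JVM2 it went from 16.2 ± 1.29 to 21.9 ± 5.17 CPM with overlapping arms (0.44, SE 0.15, adjusted *P* = 0.047, edgeR), a call removed by a filter of at least 10 counts in every library (adjusted *P* = 0.055) and by leaving out any 1 library other than JVM2-2B17 replicate 2 (0.070 to 0.17). *CTNNB1*, the gene of beta-catenin, was not called in either line (−0.07, SE 0.03, adjusted *P* = 0.072 in MEC1 and 0.07, SE 0.06, adjusted *P* = 0.42 in JVM2, edgeR). *BCL9*, a beta-catenin co-factor, was at 0.10 (SE 0.08, adjusted *P* = 0.39, edgeR) in MEC1 and −0.39 (SE 0.15, adjusted *P* = 0.063, edgeR) in JVM2.

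*ROR1*, a Wnt5a receptor found on CLL cells but little on normal adult B cells, lies at chr1:63774017-64181498. It held 3, 6 and 6 counts in MEC1-CTRL and 11, 4 and 4 in MEC1-2B17, did not pass the filter on low counts, and overlapped between the arms (two-sided exact permutation *P* = 0.8, n = 3 against 3, where the smallest possible is 0.1). A change of *ROR1* was not detectable at this depth. *ROR2*, the related receptor, averaged 0.186 CPM in MEC1-CTRL and 0.498 CPM in MEC1-2B17 (log2 FC 1.38, SE 0.35, adjusted *P* = 0.0040, edgeR), and *WNT5A* 0.821 and 0.468 CPM (−0.81, SE 0.30, adjusted *P* = 0.038, edgeR). Both were listed for MEC1 alone. Each passed the filter on low counts only through its higher group, so that these calls add little to the counts. *ROR2* held 4 to 10 counts in MEC1-CTRL and 13 to 20 in MEC1-2B17, and *WNT5A* 19 to 37 and 9 to 20.

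*LPL* encodes lipoprotein lipase, which splits triglycerides and is switched on in CLL with unmutated immunoglobulin genes. It lies on chromosome 8 and was listed for JVM2 alone. Counts were 24, 29 and 26 in JVM2-CTRL and 32, 31 and 26 in JVM2-2B17. The means of 2.62 ± 0.199 and 3.11 ± 0.329 CPM gave a log2 FC of 0.24 (SE 0.20) that did not pass the test (adjusted *P* = 0.43, edgeR). *LMF1*, needed for folding of the lipase, rose in JVM2 from 1.06 to 2.40 CPM (log2 FC 1.19, SE 0.28, adjusted *P* = 0.0076, edgeR) and was at 0.08 in MEC1 (SE 0.09, adjusted *P* = 0.51, edgeR). *LMF1* passed the filter on low counts in JVM2 only through JVM2-2B17. *VLDLR*, a lipoprotein receptor that binds the lipase, fell in MEC1 from 10.5 ± 1.27 to 4.48 ± 0.108 CPM (log2 FC −1.24, SE 0.10, adjusted *P* = 7.8e-09, edgeR) and averaged 1.06 and 0.700 CPM in JVM2 (−0.60, SE 0.41, adjusted *P* = 0.30, edgeR). *GPIHBP1*, which anchors the lipase to endothelium, had no row.

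*CLLU1*, a transcript named for its upregulation in CLL, lies at chr12:92421531-92431002 and was listed for MEC1 alone. It held 11, 4 and 5 counts in MEC1-CTRL and 13, 11 and 11 in MEC1-2B17, and passed the filter only through the higher group. The log2 FC of 0.90 (SE 0.38) was not called (adjusted *P* = 0.068, edgeR), and since the gene was kept through its higher group a call gained by leaving out MEC1-CTRL replicate 1, the highest control (adjusted *P* = 0.023), supports no change. The opposite-strand transcript *CLLU1OS* held 16, 21 and 16 counts in MEC1-CTRL and 37, 28 and 23 in MEC1-2B17 and rose by a log2 FC of 0.83 (SE 0.25, adjusted *P* = 0.013, edgeR). Of the partners of *CD5*, which itself had no row, *CD6* was listed for MEC1 alone, at 1.13 and 0.709 CPM (−0.69, SE 0.25, adjusted *P* = 0.036, edgeR). *CD72* was at −0.22 (SE 0.14, adjusted *P* = 0.22, edgeR) in MEC1 and fell by −0.82 (SE 0.22, adjusted *P* = 0.014, edgeR) in JVM2.

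Levels can be ordered between genes only per length, here in RPKM. *FCER2* led in all 4 populations, at 60.8 ± 0.689 RPKM in MEC1-CTRL, 73.5 ± 2.43 in MEC1-2B17, 121 ± 3.62 in JVM2-CTRL and 145 ± 19.9 in JVM2-2B17, and *ITGA4* came next, at 20.9, 22.1, 21.8 and 11.8 RPKM in the same order. MEC1-CTRL continued with *LEF1* (3.06 RPKM), *CD38* (0.712), *ZAP70* (0.369), *TCL1A* (0.257), *CLLU1* (0.0272) and *ROR1* (0.0215). *ZAP70* and *TCL1A* overlapped by library there, as did *CLLU1* and *ROR1*. In MEC1-2B17 *ZAP70* (2.22 RPKM) had passed *CD38* (1.50) and *TCL1A* had become the lowest marker (0.00466). JVM2-CTRL continued with *CD38* (9.80 ± 0.289 RPKM), *TCL1A* (8.67 ± 0.918) and *LPL* (0.634). There *CD38* and *TCL1A* nearly met but did not overlap by library (lowest *CD38* 9.48 RPKM, highest *TCL1A* 9.47 RPKM). In JVM2-2B17 the order was *TCL1A* (7.12 RPKM), *CD38* (3.19) and *LPL* (0.753).

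**Figure D4:**
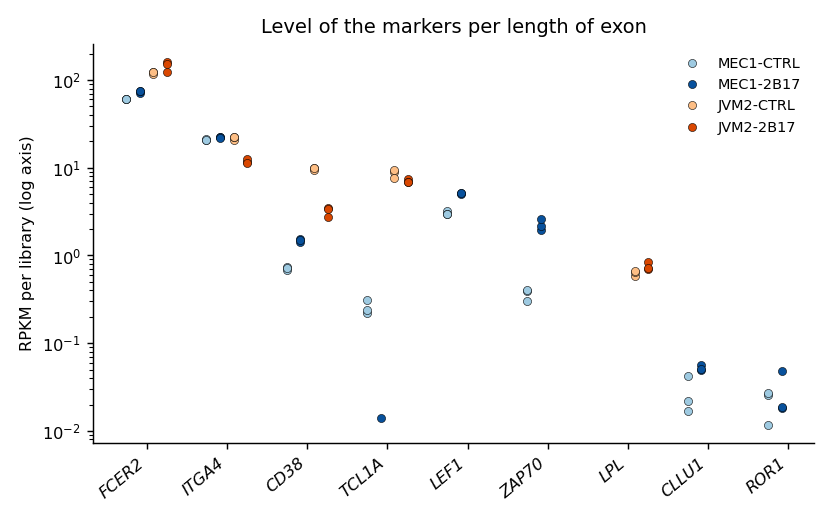
RPKM of the 9 listed markers per library on a log axis, by population. *FCER2* and *ITGA4* stand highest in every population, and *TCL1A* of MEC1-2B17 is drawn for 1 library because the other two held 0 counts.

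All 4 markers tested in both lines were lower in MEC1-CTRL than in JVM2-CTRL, where 78.3% of 15130 genes were called. The log2 difference was −3.95 for *CD38*, −5.24 for *TCL1A*, −1.17 for *FCER2* (SE 0.07, adjusted *P* = 2.1e-12, edgeR) and −0.23 for *ITGA4* (SE 0.05, adjusted *P* = 3.3e-04, edgeR). The value for *ITGA4* fell to −0.072 (adjusted *P* = 0.21) when libraries were scaled by size alone. Line, control construct and antibiotic cannot be told apart in this comparison. The study's methods name sequencing sites at Genome Québec and at the CHU de Québec without assigning libraries to them, so that site may go with line too. The change with *UGT2B17* differed between the lines for 3 of the 4 markers (*CD38*, *ITGA4* and *TCL1A*, the last resting on 1 count in MEC1-2B17), against 32.0% of 15130 genes, and for 2 of 3 without *CD38*.

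Beyond the 10 markers, 82 genes in 4 lists (partners of the markers, further immunophenotype genes, further prognostic transcripts, and genes of other B-cell neoplasms) were examined. In MEC1 49 of 65 tested genes were called, 17 higher and 32 lower, with a median log2 FC of −0.12, against 41.7% called and a median of 0.0026 over all genes tested. In JVM2 33 of 60 were called, 15 higher and 18 lower, with a median of −0.082, against 29.3% and 0.00012 over all genes. By list, the partners gave 17 of 22 in MEC1 (5 higher, 12 lower) and 8 of 17 in JVM2 (3 higher, 5 lower). Immunophenotype genes gave 18 of 26 (8 higher, 10 lower) and 15 of 25 (7 higher, 8 lower), and prognostic transcripts 10 of 13 (4 higher, 6 lower) and 8 of 15 (5 higher, 3 lower). Among the genes of other B-cell neoplasms 4 of 4 were lower in MEC1-2B17 and 2 of 3 in JVM2-2B17. The changes differed between the lines for 43 of 64, against 32.0% of all genes. The counts of the prognostic list and of the 4 lists together include *UGT2B17*, whose rise in each line was set by the design. The lists were chosen with earlier results of these data known. Some called genes passed the filter on low counts only through their higher group, among them *ROR2* and *WNT5A* in MEC1 and *CR2*, *LMF1*, *ITGAX* and *SEPT10* in JVM2. The counts of these lists, here and below, are therefore a description.

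Of 56 genes of these lists tested in both lines 24 were called in both, 14 in the same and 10 in opposite directions. Among all 12243 genes tested in both lines, 1935 were called in both and 910 of these in opposite directions. Higher in both 2B17 arms were *CCR7*, *CD22*, *DPP4*, *NRIP1*, *TCF7* and *UGT2B17*. The last is the transfected gene, counted here among the 24 and the 14, and its rise was set by the design. *DPP4*, the peptidase CD26, rose from 21.0 to 30.7 CPM in MEC1 (log2 FC 0.55, SE 0.05, adjusted *P* = 7.1e-08, edgeR) and from 8.83 to 20.9 CPM in JVM2 (1.25, SE 0.12, adjusted *P* = 6.0e-06, edgeR). *CCR7*, the chemokine receptor that guides B cells into lymph nodes, rose by 0.33 and 0.46 on the log2 scale, and *NRIP1*, a nuclear receptor co-repressor, by 0.25 and 1.61. *CD22*, an inhibitory co-receptor of the B-cell receptor, rose by 0.36 in MEC1 and 0.38 in JVM2, the latter with an adjusted *P* of 0.029 (edgeR) that rose to between 0.057 and 0.12 when any 1 library other than JVM2-2B17 replicate 2 was left out.

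Lower in both were *CCND1*, *CCND2*, *CD44*, *ITGB1*, *LCK*, *PEG10*, *PTPRC* and *SYK*. The D-type cyclins *CCND1* and *CCND2* fell in MEC1 from 13.7 to 5.92 CPM (log2 FC −1.21, adjusted *P* = 1.4e-09, edgeR) and from 23.5 to 9.94 CPM (−1.24, adjusted *P* = 1.4e-11, edgeR). In JVM2, where both were far higher, they fell from 422 to 355 CPM (−0.25, adjusted *P* = 0.0035, edgeR) and from 465 to 376 CPM (−0.31, adjusted *P* = 0.0037, edgeR). *CD44*, a hyaluronan receptor, fell by −0.73 and −0.38 and *PTPRC*, the gene of CD45, by −0.81 and −0.38 on the log2 scale in MEC1 and JVM2. *PEG10*, an imprinted retrotransposon-derived gene, fell by −0.12 in MEC1, a call lost without MEC1-CTRL replicate 2 (adjusted *P* = 0.057) or MEC1-2B17 replicate 2 (0.15), and by −0.65 in JVM2.

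Opposite in the lines, and higher in MEC1-2B17, were *CR2*, *CD83* and *CD79A*. *CD79A*, a signaling chain of the B-cell receptor, rose by 0.28 in MEC1 and fell by −0.39 in JVM2 on the log2 scale, and *CD83*, an activation marker, by 0.16 and −0.51. The JVM2 call for *CD79A* was lost without JVM2-CTRL replicate 1 (adjusted *P* = 0.074) or 3 (0.053). The opposite pattern, a fall in MEC1 and a rise in JVM2, was found among others for *CD69*, *ITGAX*, *MS4A1*, *SLAMF1* and *VCAM1*. *CD69*, an early activation antigen, changed by −0.73 and 0.48, *MS4A1* (CD20) by −0.58 and 0.40, *SLAMF1* (CD150) by −0.41 and 0.35, and *ITGAX* (CD11c) by −0.59 and 1.29 on the log2 scale. *ITGAX* passed the filter on low counts in JVM2 only through JVM2-2B17. For each gene named here as opposite in the lines the difference between the lines was itself called (adjusted *P* from 1.6e-15 for *CR2* to 0.0011 for *ITGAX*, edgeR).

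*SEPT10*, a septin of the cytoskeleton, fell in JVM2 from 4.24 ± 0.481 to 0.686 ± 0.204 CPM (log2 FC −2.59, SE 0.27, adjusted *P* = 1.8e-05, edgeR), and was too low to test in MEC1. *SEPT10* passed the filter on low counts in JVM2 only through JVM2-CTRL. *WNT3*, a Wnt ligand, rose in JVM2 to 3.75 ± 1.06 CPM (1.52, SE 0.27, adjusted *P* = 0.0012, edgeR) and stood at 0.07 in MEC1 (SE 0.28, adjusted *P* = 0.87, edgeR), a difference of −1.45 (SE 0.40, adjusted *P* = 0.0087, edgeR).

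**Figure D5:**
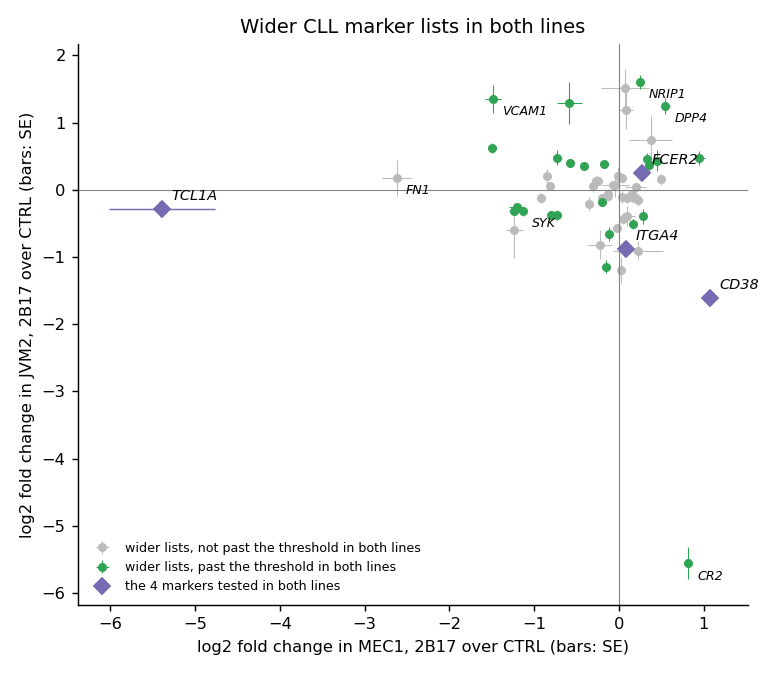
Log2 fold change of 2B17 over CTRL in JVM2 (vertical axis) against MEC1 (horizontal axis), with SE bars, for the 56 wider-list genes and the 4 markers tested in both lines (diamonds). *CD38* and *CR2* lie in the lower right quadrant, *VCAM1* in the upper left, and *TCL1A* far to the left.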

How the data were processed

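Per the labels and the study's methods, ribosomal RNA-depleted libraries were sequenced paired-end, trimmed with Trimmomatic, aligned to hg38 with TopHat2 2.0.14 and counted per gene with HTSeq, and the submitters' processing notes also name DESeq2 and edgeR. The authors deposited raw counts per gene, 1 table per line. The 12 columns of rounded normalized values and the authors' columns of fold changes and *P* values were not used. Genes outside the tables were not analysed.

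Counts were tested with edgeR 4.0.16 (R 4.3.3): TMM scaling, filterByExpr and the quasi-likelihood test with Benjamini-Hochberg adjustment over all genes tested, in each line separately. The difference between the lines and the control comparison came from 1 fit of all 12 libraries, over genes in both tables. CPM scale counts to the total over the genes tested, adjusted by the TMM factor, and RPKM use GENCODE release 44 exon lengths. *P* values measure the spread between 3 replicates of a transfected population, and not that between separate transfections. The procedure was checked on simulated counts. Alternatives were DESeq2 1.42.0, library-size scaling, other filters, a replicate block and leaving out each library.

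The members and lists were chosen with earlier results of these data known. Named from the wider lists were genes called in both lines, the 5 largest called changes per line (mean of at least 1 CPM) and the 5 genes most like *CD38*. The partner genes were also named, whatever their values, which goes beyond that rule. Some genes that this rule covers are not reported here.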

Additional observations from a re-analysis of the deposited data

Results flagged for a closer look

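Of the 3 markers other than *CD38* tested in both lines, the change with *UGT2B17* differed between MEC1 and JVM2 for 2, against 32.0% of 15130 genes. The test was an interaction term in edgeR's fit of all 12 libraries. On the log2 scale the change in MEC1 minus that in JVM2 was 2.69 for *CD38*, which was chosen with this pattern known, so that no test is given for it. It was 0.97 for *ITGA4* (adjusted *P* = 2.9e-09) and −4.90 for *TCL1A* (adjusted *P* = 4.5e-06). The value for *TCL1A* rests on 61 counts in MEC1-CTRL and 1 in MEC1-2B17, and the gene passed the filter on low counts in MEC1 only through the control group. The control construct differed between the lines (shRNA in MEC1, empty vector in JVM2) and cannot be told apart from the line.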

How the results depend on the processing

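No called value of a marker changed direction under the alternatives named in the methods. The difference between the lines for *FCER2*, not called, took either sign (−0.08 to 0.09 when single libraries were left out). Of 304 values of the markers under alternatives, 295 stayed on the same side of the threshold, 6 lost a call (*FCER2* in JVM2 in 5 of the 6 fits without 1 library, and *ITGA4* between the controls with library-size scaling) and 3 gained one. The gained calls were *CLLU1* in MEC1 without MEC1-CTRL replicate 1 (adjusted *P* = 0.023), *ITGA4* in MEC1 without MEC1-2B17 replicate 3 (0.032) and *TCL1A* in JVM2 without JVM2-CTRL replicate 3 (0.042), all in edgeR. For the 28 genes of the wider lists covered by the naming rule 691 of 711 values stayed on the same side and 20 lost a call, and *FN1* in JVM2 and *WNT3* in MEC1, not called, took either sign. Genes called ranged over the fits without 1 library from 5936 to 6606 in MEC1 and from 2687 to 4541 in JVM2, and DESeq2 called 5803 and 2974. Samples were treated as unpaired because the study's methods name no pairing. The correlations of same-numbered deviations (−0.042 to 0.040 in MEC1 and −0.0059 to 0.117 in JVM2) rest on 3 replicates per group and cannot exclude a pairing. A replicate block gave 6897 calls in MEC1, 4236 in JVM2, 5083 for the difference between the lines and 10625 between the controls. Depth limits *ROR1*, *CLLU1* and *LPL*, and *TCL1A* in MEC1-2B17.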
